A study of Mus musculus with 2 samples.

Results

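The distal miRNA cluster of the imprinted Dlk1-Dio3 region was measured in neural tube of B6NCrl mouse embryos at 12.5 days of development. Its members were chosen by position alone, as the counted genes that GENCODE M21 (assembly mm10) annotates as miRNA genes on the plus strand of chromosome 12, from the first base of Mir379 to the last base of Mir3072 at 109747960. This gave 34 of the 1973 miRNA genes counted, from Mir379 at the 5′ end to Mir3072 at the 3′ end. The samples were microRNA-seq libraries of 1 group, neural tube of embryos labelled healthy, with no allele or agent named, in 2 biological replicates. Replicate 1 pooled 120 embryos of both sexes and replicate 2 pooled 88. There was no second tissue, age or treatment, so the values describe this tissue and its spread between pools.

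MicroRNAs are short RNAs cut from hairpins in longer transcripts. They repress messenger RNAs that pair with their seed, the bases from position 2 to 8 of the mature strand. The distal Dlk1-Dio3 cluster lies downstream of the non-coding genes Meg3 and Rian, and in mice its hairpins are expressed from the maternal chromosome. The cluster is known for its expression in the embryo and the brain, and several of its miRNAs have been studied in neuronal differentiation and in dendrites.

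Mature sequences were taken from RefSeq (GRCm38.p6), in which 33 of the 34 members were matched by symbol with 61 mature sequences. The table gives both arms for 28 members and 1 mature sequence for 5, Mir487b among the latter. The first set shows the listed arms of the members that held most of the cluster's reads. Sequences run 5′ to 3′, on the plus strand, and the seed is in capitals.
miR-487b-5p: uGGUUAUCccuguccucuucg
miR-369-5p: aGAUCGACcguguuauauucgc
miR-369-3p: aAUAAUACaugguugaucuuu
miR-411-5p: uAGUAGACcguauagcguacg
miR-411-3p: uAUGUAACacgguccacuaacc
miR-382-5p: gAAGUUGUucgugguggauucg
miR-382-3p: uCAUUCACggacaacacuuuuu
miR-381-5p: aGCGAGGUugcccuuuguauauu
miR-381-3p: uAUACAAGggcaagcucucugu
miR-379-5p: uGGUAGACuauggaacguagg
miR-379-3p: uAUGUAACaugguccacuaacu
miR-541-5p: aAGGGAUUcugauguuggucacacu
miR-541-3p: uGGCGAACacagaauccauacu

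A gene's count holds the reads of both arms, so no value below can be assigned to 1 of its mature strands. The 61 sequences carried 56 different seeds, and 5 seeds were held by more than 1 member. They are shown because, among the listed arms, they define the groups of members that could act on the same messenger RNAs. Arms that are not listed, such as the other arm of Mir487b, could not be compared.
miR-1193-5p: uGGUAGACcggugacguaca
miR-1197-5p: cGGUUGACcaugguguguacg
miR-758-5p: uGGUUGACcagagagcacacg
miR-453: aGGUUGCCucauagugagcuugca
miR-496a-5p: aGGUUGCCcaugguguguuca
miR-494-5p: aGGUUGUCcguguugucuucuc
miR-410-5p: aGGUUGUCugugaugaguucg
Here miR-1193-5p shares its seed with miR-379-5p above, and miR-379-3p shares its seed with miR-411-3p. The other groups are miR-1197-5p with miR-758-5p, miR-453 with miR-496a-5p, and miR-494-5p with miR-410-5p. For 11 seeds of members a mature miRNA of a gene outside the members carried the same bases, such as miR-362-3p for miR-329-3p and miR-376b-5p for miR-376c-5p. None of the 61 sequences was found whole in the hairpin of another M21 miRNA gene.

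Many arms resembled each other beyond the seed. The closest pair was miR-379-3p and miR-411-3p, identical at 20 of 22 positions, with U10C and U22C as the differences (base of the first, position from the 5′ end, base of the second). The 3′ arms of Mir300 and Mir381 were identical at 19 of 22 positions (G4A, U21G and C22U), and the first of these changes lies in the seed. The 3′ arms of Mir543 and Mir495 were identical at 18 of 22 (U6A, U7A, G9A and C10U), again with changes in the seed.
miR-300-3p: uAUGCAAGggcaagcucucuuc
miR-543-3p: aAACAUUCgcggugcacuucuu
miR-495-3p: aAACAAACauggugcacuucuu

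A short stretch recurred in the 3′ arms. The letters GGUNNAC (N is any base, searched on the RNA strand only) were present in 9 of 29 3′ arms of members, or 31.0%, against 7 of 702 3′ arms of other mouse miRNAs in the RefSeq table, or 0.997%. On the 5′ arms, GGUUGNCC was present in 7 of 31 members, 22.6%, against 1 of 696, 0.144%. The other miRNAs were those of every gene outside the members. Some come from the same region, such as miR-376b-5p and miR-370-5p. Both motifs were picked after the sequences had been read, so these shares are descriptions. The arms below show the first motif in capitals.
miR-379-3p: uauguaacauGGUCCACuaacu
miR-323-3p: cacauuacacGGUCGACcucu
miR-154-3p: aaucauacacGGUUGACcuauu
miR-412-3p: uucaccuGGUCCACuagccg
The 9 members with GGUNNAC, which are Mir379, Mir411, Mir1197, Mir323, Mir758, Mir543, Mir495, Mir154 and Mir412, ranged from 4.19 to 4696 reads scaled to a library total of 1000000 gene reads (CPM), with a median of 522.2. The 19 detected members with a 3′ arm lacking it ranged from 8.24 to 4867 CPM, with a median of 192.1. The ranges of both sets overlapped over nearly their whole length.

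Reads on the genes' own strand numbered 4802411 in replicate 1 and 4422853 in replicate 2 over all miRNA genes, and CPM is a count scaled by this total, not by hairpin length. Neural and axial marker genes summed to 336640 and 324720 CPM, most of it from the Hox cluster genes Mir10a and Mir10b. Of the other markers on this list, Mir137 had a mean of 2809 CPM, Mir9-3 283.1 and Mir9-2 3.95. Both Mir9 genes share 20 bases with 3 other miRNA genes. The neuronal Mir124a genes had means of 1.52 to 9.71 CPM, and each shares 20 bases with 2 other miRNA genes. Markers of other tissues summed to 20304 and 18258 CPM for endothelium (Mir126a), 867.9 and 510.3 for muscle, 201.8 and 170.2 for leukocytes, 91.4 and 88.6 for red blood cells and 32.3 and 14.0 for liver. In muscle, 4 of 6 markers with a row were above 0 reads, with Mir133a-1 and Mir133a-2 at 0. These 2 and Mir1a-1 each share 20 bases with 2 other miRNA genes, and multi-mapping reads were not counted. Most of the muscle sum came from Mir206, with 811 and 470 CPM. In the other lists every marker that had a row was above 0. Their part in the cluster's values was not tested. In a bulk tissue, fewer expressing cells and less RNA per cell cannot be told apart.

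Together the 34 members held 3.42% of the gene reads in replicate 1 (95% exact binomial interval 3.40 to 3.43) and 3.32% in replicate 2 (3.30 to 3.34), a mean of 3.37% ± 0.0689 (SD, n = 2). With multi-mapping reads counted in the total the share was 2.03%, and without the 4 members that share 20 bases with another miRNA gene it was 2.05%. The counts were 164166 and 146883 reads. At the members, 0 reads lay on the opposite strand in either library. The intervals cover counting error only, and the pools differed by more than they allow. Of the 34 members, 31 reached 10 reads in each library and are called detected, against 18.8% of all counted miRNA genes. Among detected genes the median level was 249.9 CPM for the cluster and 114.7 CPM for all 371. Of the 31 detected members, 10 stood among the 100 most abundant of the 371 detected genes, a similar share.

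The other miRNA genes of the Dlk1-Dio3 region on the same strand, upstream of Mir379 around Meg3, the antisense of Rtl1 and Rian, are the nearest comparison. They number 19, of which 13 were detected. They held 1.40% of the gene reads in both libraries. Summed over its 34 genes, the distal cluster had 2.44 times the reads of these 19 in replicate 1 and 2.37 times in replicate 2. The mean ratio was 2.41 ± 0.0514 (n = 2), above equal sums by far more than the spread between pools. No test was run on this ratio, which compares sums over unequal numbers of genes. Gene by gene, the proximal genes were not lower. Their 13 detected genes had a median of 566.4 CPM, against 249.9 CPM for the 31 detected members. Without the genes that share 20 bases with another miRNA gene, which takes out Mir487b, Mir411, Mir758 and Mir376c, the ratio was 1.46.

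**Figure D1:**
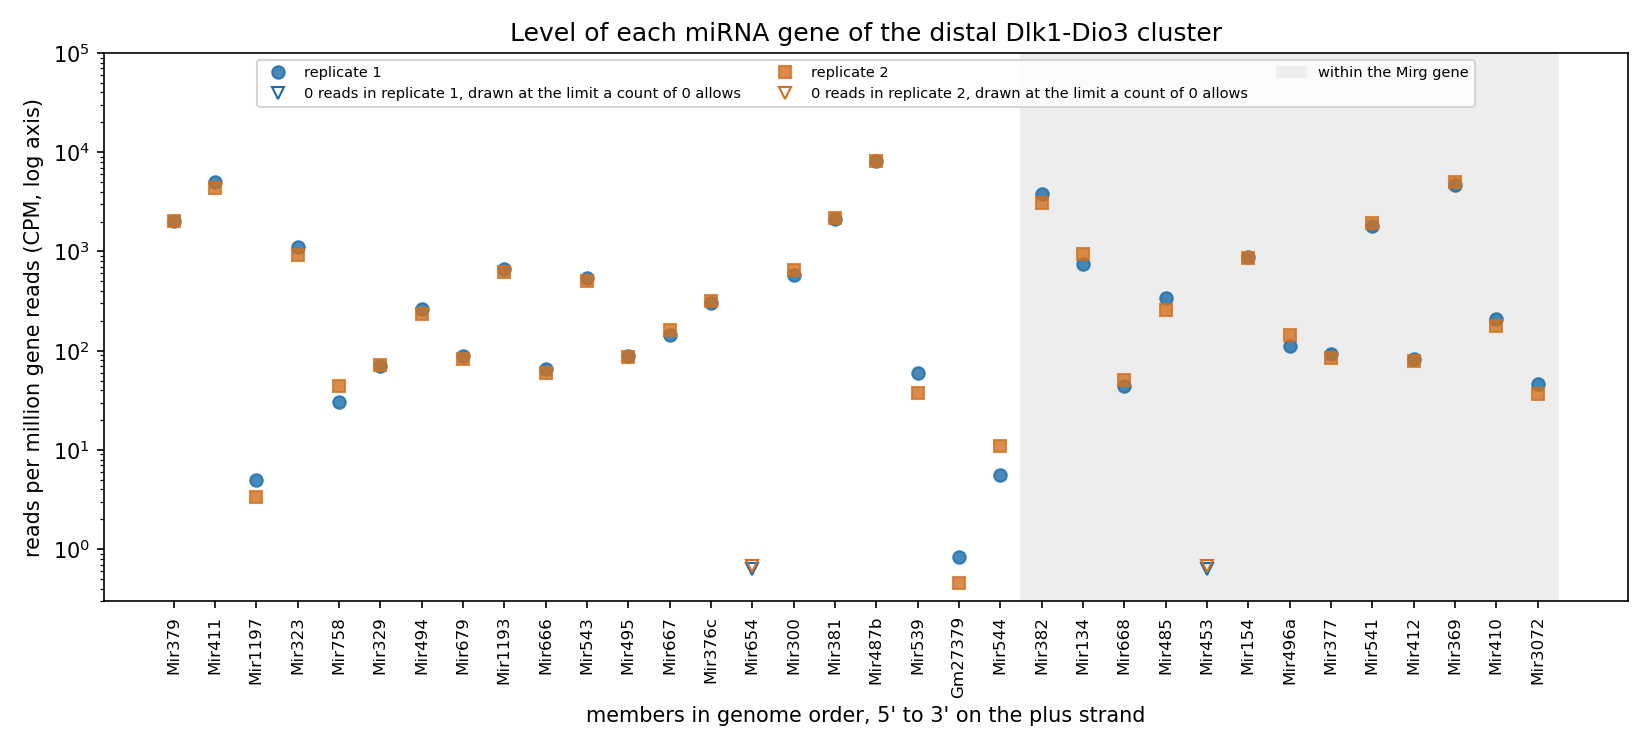
Level of each of the 34 members in genome order (x axis), in CPM on a log axis (y axis), with 1 point per replicate and the extent of Mirg shaded. Levels run from under 1 CPM to 8163 CPM with both replicates close together, and high and low members alternate along the whole cluster. Open triangles mark Mir654 and Mir453, which had 0 reads.

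The cluster's reads came from few hairpins. Mir487b (chr12:109727333-109727414) stood highest, with 8144 CPM in replicate 1 and 8182 in replicate 2. It alone held 24.2% ± 0.574 of the cluster's reads (n = 2) and ranked 22 among all miRNA genes. A stretch of 20 of its hairpin bases also occurs in Mir376b.

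Next came Mir369 (chr12:109743418-109743496), at 4691 and 5044 CPM. Its 3′ strand is known from work on translation of messenger RNAs with AU-rich elements and on N-cadherin in neurogenesis. Mir411 (chr12:109710175-109710256) had 5036 CPM in replicate 1 and 4355 in replicate 2. The libraries put Mir369 and Mir411 in opposite order, with a ratio of 1.04 ± 0.160, so they could not be ranked.

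Mir382 (chr12:109733771-109733846) followed with 3762 and 3053 CPM. It was lower than Mir411 in both libraries, by 1.38 ± 0.0623 times. These members together with Mir381 made up the top 5, which held 69.2% ± 0.570 of the cluster's reads. The lower-ranked 17 of the 34 members held 2.80% ± 0.105.

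A group of members with close levels followed. Mir381 (chr12:109726822-109726896), which like Mir134 has been tied to dendrite growth, had 2144 and 2199 CPM. Mir379 (a hairpin of 66 bases ending at 109709125), the first hairpin of the cluster, had 2011 and 2016 CPM, and Mir541 (chr12:109742409-109742498) 1817 and 1928. In both libraries they kept the order Mir381, Mir379, Mir541, with ratios of neighbours of 1.08 ± 0.0176 and 1.08 ± 0.0432.

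Mir323 was the last of the 8 members above 1000 CPM on average, with 1115 CPM in replicate 1 and 924.3 in replicate 2. Mir154, after which a family of related hairpins in this region is named, had 880.8 and 863.2 CPM. Mir134 (chr12:109734139-109734209), which limits dendritic spine size through Limk1 in neurons, had 747.8 CPM in replicate 1 and 937.2 in replicate 2. The order of Mir154 and Mir134 turned between the libraries, and their ratio was 1.05 ± 0.182. Mir1193 had 668.6 and 622.7 CPM and Mir300 584.1 and 644.2, again in no fixed order.

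The middle of the range held the members between 100 and 1000 CPM, 11 in all with Mir154, Mir134, Mir1193 and Mir300. Mir543, like Mir369 and Mir496a studied as a regulator of N-cadherin, had 541.8 and 502.6 CPM. Mir485, known from synapse studies, had 338.0 CPM in replicate 1 and 255.3 in replicate 2. It could not be ordered against Mir376c, which had 299.9 and 315.4. Mir494 had 264.4 and 235.4 CPM, Mir410 206.3 and 177.9, and Mir496a 111.4 and 144.0. Mir667 lay between the last 2, at a mean of 154.0 CPM.

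Below 100 CPM were 12 detected members. Mir495, Mir377, Mir679, Mir412, Mir329, Mir666 and Mir539 had means from 48.4 to 88.2 CPM. By mean, the 5 lowest were Mir668, Mir3072, Mir758, Mir544 and Mir1197. Mir668 had 44.4 and 51.1 CPM, Mir3072 46.6 and 36.9, and Mir758 30.4 and 43.9. Mir544 had 5.62 and 10.9 CPM, and Mir1197 had 24 and 15 reads, or 4.19 ± 1.14 CPM. The libraries put Mir539 and Mir668 in opposite order (ratio 1.04 ± 0.420), so the upper edge of this set is not fixed. Mir3072 (chr12:109747878-109747960) is the last hairpin of the cluster. From Mir1197 to Mir487b the means of detected members spanned 1946-fold.

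For 3 members the read minimum was not met. No read was counted for Mir654 or Mir453. By the limit of 3 counts, their level could still be as high as 0.625 CPM in replicate 1 and 0.678 CPM in replicate 2. Gm27379 had 4 and 2 reads. These counts limit what the libraries could show and do not establish absence.

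**Figure D2:**
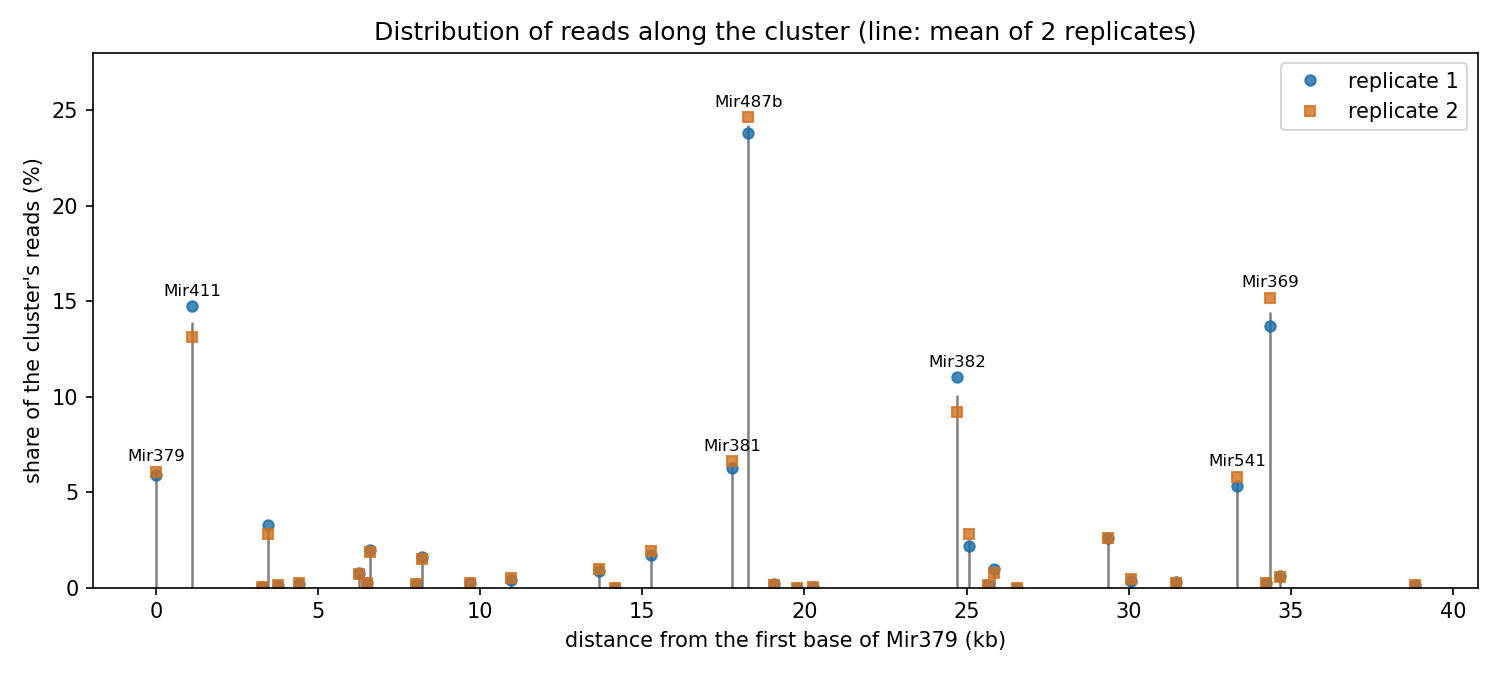
Share of the cluster's reads held by each member (y axis, percent) against its distance from the first base of Mir379 (x axis, kb), with points for the replicates and a line to their mean. Mir487b stands alone at 24.2%, and the other leading hairpins are spread along the cluster.

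Along the 38.9 kb of the cluster no gradient of level with order was visible. Spearman's rho between mean CPM and order was 0.0040 over the 31 detected members, 0.0060 in replicate 1 and -0.0020 in replicate 2. Over all 34 members it was -0.037. The points share 1 locus and the same libraries, so these values are descriptions. The first 17 members held 37.8% ± 0.966 of the reads (n = 2). Adding Mir487b, the 18th, brought this to 62.0% ± 0.392, so where the cluster is divided decides which side is larger.

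The annotation divides the cluster in another way. The first 21 members, from Mir379 to Mir544, overlap no other gene on their strand, and the last 13, from Mir382 to Mir3072, lie within Mirg, a long non-coding gene that hosts miRNAs. Of these, 9 touch an exon of an annotated Mirg transcript, and Mir453, Mir154, Mir496a and Mir541 lie in introns. For Mir382 the exon overlap is 2 bases, and for Mir369 and Mir668 it is 1 base, so their hairpins sit at an exon's edge. Members within Mirg held 37.8% ± 0.423 of the cluster's reads. Detected members inside Mirg (12) had a median of 244.4 CPM and those upstream (19) a median of 249.9, with ranges of 41.7 to 4867 and 4.19 to 8163 CPM.

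**Figure D3:**
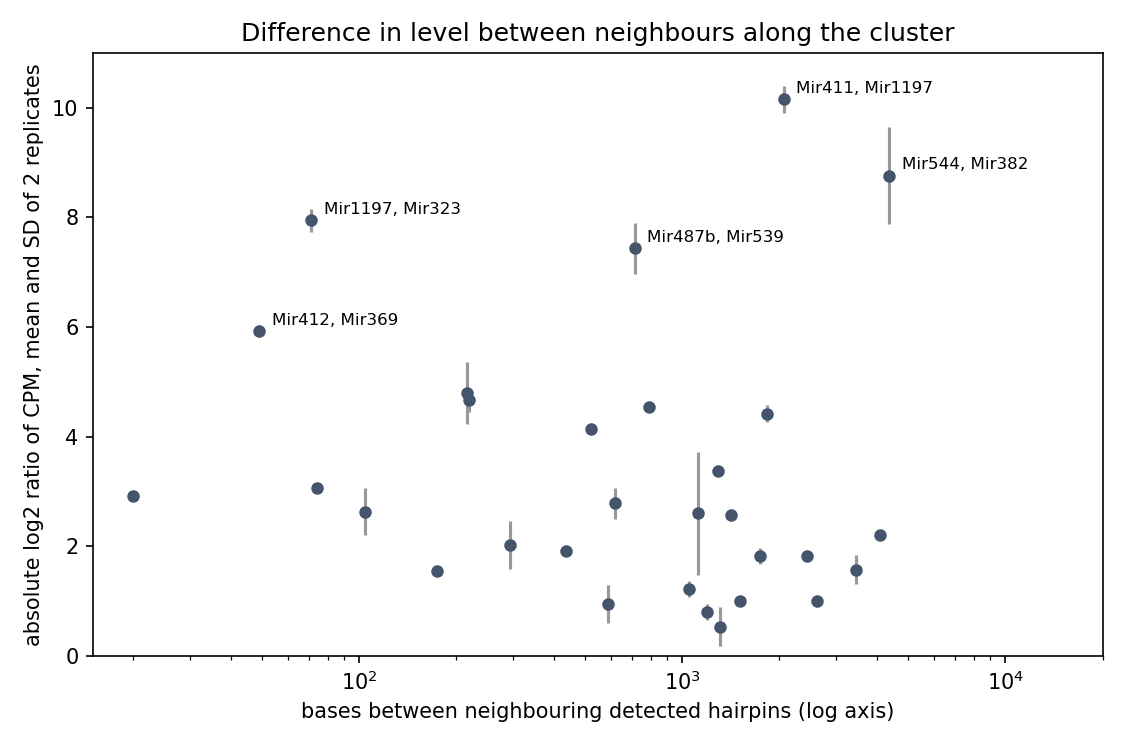
Absolute log2 ratio of CPM between neighbouring detected members (y axis, mean and SD of 2 replicates) against the bases between their hairpins (x axis, log scale). Pairs with under 100 bases between them include Mir1197 with Mir323 at a log2 ratio of 7.95, and most error bars are short against the differences.

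Hairpins that lie side by side differed widely in level. Mir412 and Mir369 are 49 bases apart. Mir412 had 81.6 and 78.9 CPM, so that Mir369 exceeded it by 60.7 ± 4.56 times (n = 2). Mir1197 and Mir323 are 71 bases apart, and Mir323 was 247.8 ± 35.0 times higher. Mir1193 exceeded Mir679, 20 bases upstream of it, by 7.55 ± 0.0343 times.

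Downstream of Mir487b the level dropped sharply. Mir539, 714 bases on, had 59.1 and 37.8 CPM, and Mir487b exceeded it by 177.2 ± 55.8 times. Mir411 exceeded the next counted member, Mir1197, by 1146 ± 195.4 times across 2060 bases. Of the 30 neighbouring pairs of detected members, 19 were at least 4-fold apart, 12 of 15 with less than 1 kb between them and 7 of 15 with more. Pairs were formed from detected members only, so other hairpins lie within some of them. Mir409, for example, has no value of its own and lies between Mir541 and Mir412. The median absolute log2 ratio was 2.61 for neighbours and 2.82 for all 465 pairs of detected members. Mir412, Mir539 and the neighbouring pairs were singled out after their values were seen.

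Members with nearly identical 3′ arms differed as well. Mir411 exceeded Mir379, its neighbour with 20 of 22 bases in common, by 2.33 ± 0.244 times. Mir381 exceeded Mir300 by 3.54 ± 0.181 times. Mir543 exceeded Mir495 by 5.92 ± 0.227 times. Each of these differences was larger than its spread between replicates. They are ratios of sequenced reads, and unequal capture of sequences during library preparation was not measured.

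Seed groups sum the genes that carry a common seed on either arm. Mir379 with Mir411 (seed AUGUAAC) summed to 7047 and 6371 CPM. Mir379 with Mir1193 (GGUAGAC) summed to 2679 and 2639 CPM. Mir494 with Mir410 (GGUUGUC) reached 470.8 and 413.3 CPM, and Mir1197 with Mir758 (GGUUGAC) 35.4 and 47.3. In the group of Mir453 and Mir496a (GGUUGCC) all reads came from Mir496a. Since the arms are not separated in the counts, these sums are upper limits for the counted reads of the named members that carry the seed.

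Base composition and folding of the hairpins were set beside the levels, as a description. Over the 31 detected members, Spearman's rho of mean CPM was -0.27 with the share of G and C in the hairpin, 0.083 with the folding energy per base predicted by RNAfold, and -0.081 with hairpin length. Mir3072 had the highest share of G and C among the members (72.3%) and Mir376c the lowest (29.1%).

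**Figure D4:**
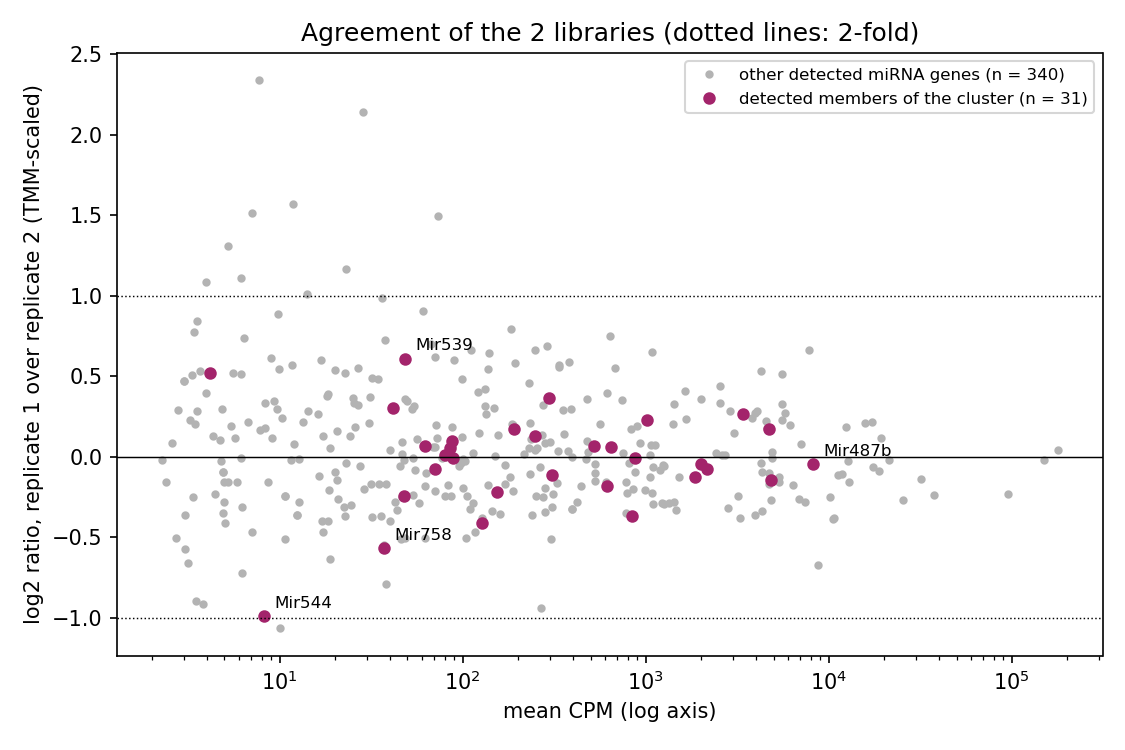
Log2 ratio of replicate 1 over replicate 2 after TMM scaling (y axis) against mean CPM (x axis, log scale) for the 31 detected members and the other detected miRNA genes. All members lie between the dotted 2-fold lines, with Mir544 at the lower one.

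The pools gave nearly the same profile of the cluster. Pearson's r of log2(CPM + 1) between the replicates was 0.994 and Spearman's rho 0.994 across the 31 detected members, which are not independent replicates. Of 30 pairs of members next to each other in rank, 22 stood in the same order in both libraries. The median log2 ratio of replicate 1 over replicate 2, after scaling by the trimmed mean of M values (TMM), was -0.01 for the members and 0.00 for all 371 detected genes. Of the members 29 were within 1.5-fold, 93.5%, against 88.7% of all detected genes.

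An exact binomial test of the reads, adjusted over all detected genes (Benjamini-Hochberg), compares the 2 libraries and not conditions. It called 6 members higher in replicate 1, against 26.1% of all detected genes, and 10 lower, against 27.0%. Scaled by library totals in place of TMM, 10 were higher and 8 lower. With a 2-fold minimum it called 0 of the 31 members, with or without adjustment, against 2.7% of detected genes. The replicate error is larger than counting error: with the common coefficient of variation of 16.3%, a log2 ratio of both pools has an SD of 0.33, and 7 members, 22.6%, were further apart than that, against 32.9% of all detected genes.

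The members farthest apart were of low abundance. Mir544 was counted 27 times in replicate 1 and 48 times in replicate 2, a log2 ratio of -0.99 (exact binomial test, adjusted p = 0.0113). Mir539 had 284 and 167 reads, a log2 ratio of 0.61 (exact binomial test, adjusted p = 3.87e-05), and Mir758 had 146 and 194 reads and a log2 ratio of -0.57. Among the 12 most abundant members, Mir134 differed most, with a log2 ratio of -0.36, just over 1 SD of the replicates.

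M21 places 39 miRNA genes on the plus strand of the interval, and 5 of them, Mir299a, Mir380, Mir376b, Mir376a and Mir409, have no value of their own and were not analysed here as members. At 4 of these places the files count a gene annotated on the minus strand, Mir299b, Gm25750, Gm25252 and Gm24321, whose opposite-strand column held plus-strand reads. At Gm24321, over Mir409, these came to 6081 CPM in replicate 1 and 4748 in replicate 2. Mir369, which could not be ranked against Mir411, had 4691 and 5044.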

How the data were processed

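For each library the authors deposited raw counts of reads on each miRNA gene, for both strands together and for each strand alone. Per the descriptions deposited beside them, annotation M4 on mm10 was used. The names of the aligner and counter were not given in the sources used here. The members and lists were chosen with earlier results of these data known. Rows that name no gene were left out: unmapped reads (27.3% and 20.0% of all reads in replicates 1 and 2), multi-mapping reads (27.0% and 28.6%), reads outside features (8.04% and 4.45%) and ambiguous reads (0).

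The column with the own-strand reads was divided by its total to give CPM. Detection required 10 reads in each library. Of 1973 identifiers, 1894 matched M21. TMM factors and the common coefficient of variation came from edgeR 4.0.16 (R 4.3.3). The libraries were compared by a two-sided exact binomial test given TMM-scaled totals (threshold 0.05), checked on simulated counts. No edgeR quasi-likelihood test was run, since there is 1 group. Errors are SDs of 2 replicates, which are separate pools. PCR reads are not independent molecules. Shared hairpin sequence means 20 identical bases in another M21 miRNA gene.

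The members named with values are the 12 with the highest mean, the first and last, those sharing a seed, the 5 lowest detected and those not detected. Others were chosen after their values were seen. Alternatives were both-strand counts, other read minimums, other scalings (library totals, DESeq2 1.42.0 size factors), another denominator, members with shared sequence left out, and each replicate left out. Hairpins were folded with RNAfold 2.7.2. Python 3.11.15, numpy 2.4.6, pandas 2.3.3, scipy 1.17.1 and matplotlib 3.10.9 were used.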

Additional observations from a re-analysis of the deposited data

Results flagged for a closer look

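Reads outside the column used for levels were found at 4 loci inside the interval, which M21 annotates on the minus strand over a plus-strand miRNA gene. Their opposite-strand reads averaged 5415 ± 942.4 CPM at Gm24321 (over Mir409), 1783 ± 50.9 at Gm25252 (over Mir376a), 868.8 ± 24.1 at Mir299b (over Mir299a) and 805.6 ± 112.8 at Gm25750 (over Mir380), each far above the limit that a count of 0 allows (n = 2). On their own strand, Mir299b had 11 and 10 reads and the other 3 loci 0.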

How the results depend on the processing

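With multi-mapping reads counted in the total, the cluster's share was 2.03%, and without the members that share 20 bases with another miRNA gene it was 2.05%. Leaving those members out gave a top 5 share of 69.9%, a rho with order of 0.031 and a ratio to the proximal genes of 1.46. With all members rho was -0.037. The plus-strand reads at the 4 loci annotated on the minus strand, chosen after seeing the data, were also added. This gave a share of 4.22% and a top 5 share of 62.3%. The ratio became 3.04, but it is one-sided, since minus-strand loci of the proximal region were not treated alike. Up to the middle of the longer order the share of the cluster's reads was 33.0%. That set includes added loci and is not the first 17 members, so both shares cannot be compared directly. Leaving out 1 replicate gave a share of 3.32% to 3.42%, a top 5 share of 68.8% to 69.6%, a share in the first 17 members of 37.1% to 38.5%, a rho of -0.0020 to 0.0060, a ratio of 2.37 to 2.44 and 31 detected members either way. Other read minimums gave 29 to 32 detected members. Of the members, 16 to 18 passed the exact binomial test under the scalings, strand counts and filters tried, while the background changed with the filter. In the main setting 16 of 31 members passed, against 197 of 371 genes. With at least 1 read in either library it was 17 of 32 against 186 of 736 genes. With at least 100 reads in both libraries it was 17 of 29 against 182 of 269. Among genes with at least 1 read in either library Mir544 passed the 2-fold minimum (log2 ratio -1.02). The median log2 ratio of the members ran from -0.01 to 0.03. It was not computed for the filter of at least 1 read in either library. The cause of these shifts was not tested beyond what each alternative leaves out or adds. Both-strand counts moved no value of the members by more than its spread. No paired analysis was possible because there is only 1 group. Members of few reads, such as Mir1197 and Mir544, are limited by depth.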
